A study of Danio rerio with 8 samples.

Results

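The NF-kB transcription factor subunits, their IkB inhibitors and 2 upstream genes were followed in bulk RNA sequencing of zebrafish heart ventricles. They are 10 genes, chosen by zebrafish symbol with case ignored, of the 32520 genes in the counts table, and each symbol matched 1 row. The group Pi-Fu held adult F1 offspring of fathers whose hearts had been cryoinjured, which kills part of the muscle by cold, and that were crossed 7 days later with uninjured females. The group Pu-Fu held adult F1 offspring of uninjured fathers and uninjured females. The offspring themselves were not injured in either group. Each group had 4 libraries, and every library was a pool of ventricles from 4 siblings, freed of atrium and bulbus arteriosus and drained of red blood cells. Strain, age and the number of fathers are not stated in the sources used here, and p-values therefore rest on pool-to-pool spread, which may hold a shared father. The series asks whether the father's injury alters heart gene expression in unperturbed offspring, and the members are compared here for that question.

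NF-kB is a family of dimers that switch on genes of inflammation and cell survival. In resting cells IkB proteins hold the dimers in the cytoplasm. Signals from Toll-like, interleukin 1 and TNF receptors activate the IKK kinase complex, which marks IkB for destruction and frees the dimers to enter the nucleus. The gene for IkB alpha is itself a target of NF-kB, which closes a feedback loop, and its messenger RNA is often read as a sign of NF-kB activity. Much of this control acts on proteins, which RNA counts do not measure.

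None of the members differed between the groups beyond the spread of the pools. Of the 10 members, 9 passed the filter on low counts and were tested with edgeR's quasi-likelihood test, and 0 had a Benjamini-Hochberg adjusted p under 0.05, where 0.0% of the 13604 tested genes were called. None reached an unadjusted p under 0.05 in this fit, which 7.14% of the tested genes did. In 0 of the tested members did the 4 Pi-Fu libraries lie all above or all below the 4 Pu-Fu libraries, against 4.18% of tested genes. DESeq2 called 0.473% of the genes and limma voom 0.0%, with 0 members in either. The members' log2 folds, Pi-Fu over Pu-Fu, ran between -0.70 and 0.77 with a median of 0.16, where the median over all tested genes was -0.01. The log2 fold was positive in 5 of the 9, against 48.6% of all tested genes. In bulk tissue, fewer cells of a type and less RNA per cell cannot be told apart.

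**Figure D1:**
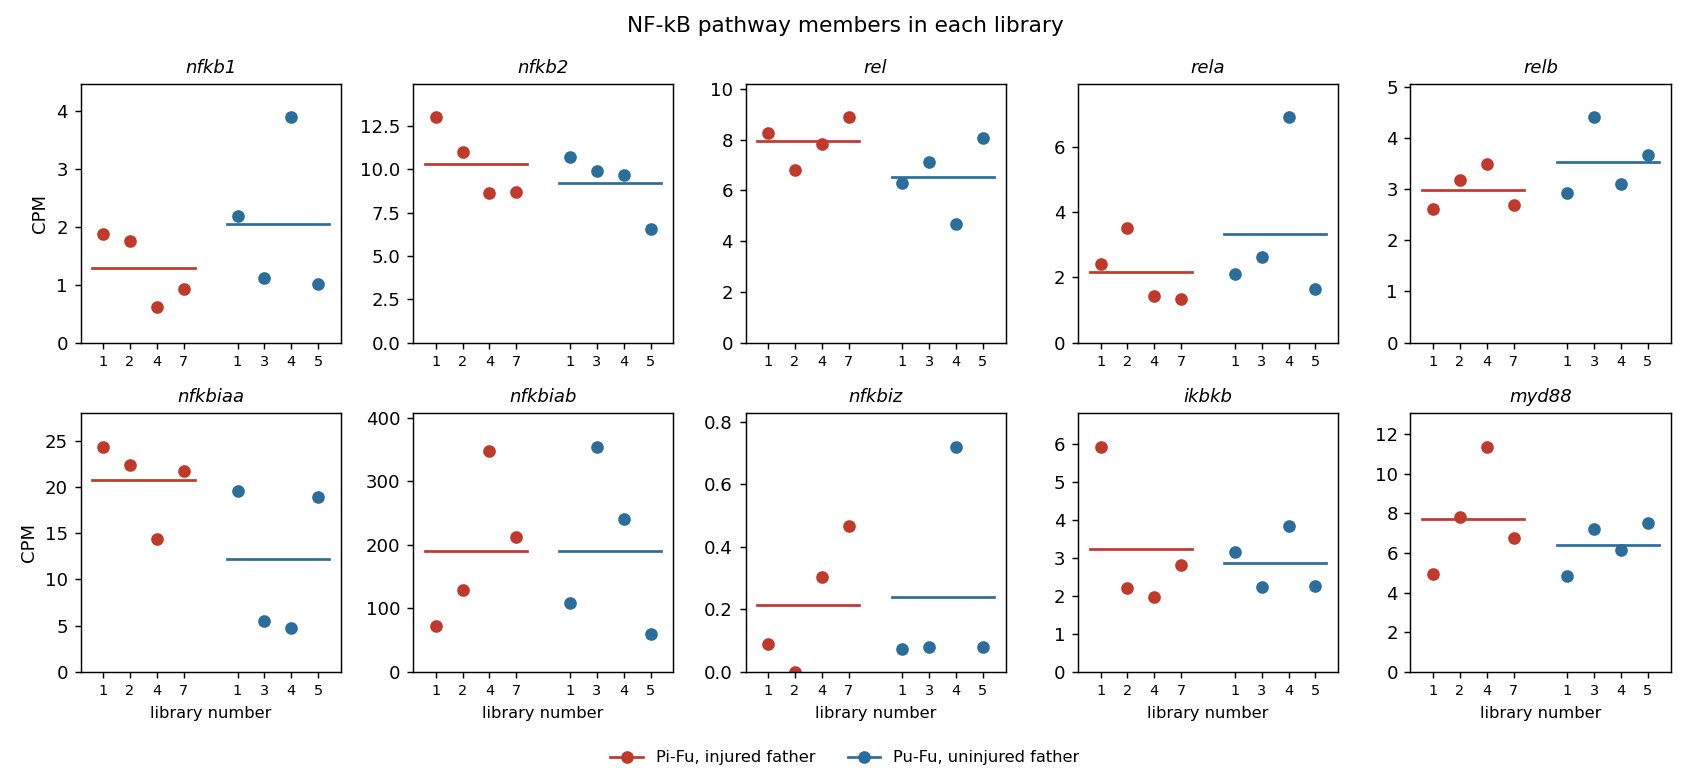
CPM (y axis, linear from 0) of the 10 members in each of the 4 Pi-Fu libraries (left in each panel) and 4 Pu-Fu libraries (right), with the library number from the labels on the x axis and horizontal lines for group means. The points of the groups overlap in every panel, and the Pu-Fu library numbered 4 is highest for nfkb1, rela and nfkbiz.

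The libraries held between 8441014 and 16290169 counts, and levels are given as CPM, counts relative to the library total after TMM scaling (trimmed mean of M-values). Cardiomyocyte markers, 9 genes of the table, summed to between 59776 and 73751 CPM in Pi-Fu and between 65566 and 73653 CPM in Pu-Fu, the highest of the marker lists. The first principal component of all genes, with 38.0% of the variance, had the Pi-Fu library numbered 4 at one end and the Pu-Fu library numbered 4 at the other, and it did not separate the groups. Macrophage markers, 20 genes of the table, summed to between 311 and 512 CPM in Pi-Fu and between 284 and 398 CPM in Pu-Fu. Most of that sum came from cd74a, between 131 and 306 CPM over the 8 libraries, and LGMN, between 116 and 173 CPM. Neutrophil markers, 5 genes of the table, summed to between 8.58 and 40.4 CPM in Pi-Fu and between 7.50 and 23.8 CPM in Pu-Fu, and lyz, a defining one, was at 0 in all libraries. Because leukocytes also express NF-kB genes, these sums stand beside the members' values, and their part in those values was not tested.

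Among the subunits, rel and nfkb2 had the highest levels per length. The gene rel encodes c-Rel, the subunit best known from lymphocytes and macrophages (ENSDARG00000055276, GRCz11 chromosome 13, 25795511 to 25819825, reverse strand). It was at 8.25, 6.81, 7.81 and 8.87 CPM in the Pi-Fu libraries numbered 1, 2, 4 and 7, against 6.28, 7.12, 4.69 and 8.04 CPM in the Pu-Fu libraries numbered 1, 3, 4 and 5. Pi-Fu values sat in the upper part of the range, and the group ranges overlapped. Its log2 fold was 0.28 (SE 0.23, edgeR adjusted p = 0.80), with a 95% interval between -0.21 and 0.78.

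The gene nfkb2 encodes the precursor whose processed form pairs with RelB in the non-canonical pathway (ENSDARG00000038687, chromosome 13, 22717366 to 22735547, forward strand). It was at 13.01, 10.99, 8.65 and 8.70 CPM in Pi-Fu and at 10.7, 9.92, 9.66 and 6.56 CPM in Pu-Fu. The lowest value was that of a Pu-Fu library and the highest that of a Pi-Fu library, with overlap between, for a log2 fold of 0.16 (SE 0.23, edgeR adjusted p = 0.88). Its partner relb (ENSDARG00000086173, chromosome 15, 17100412 to 17125217, forward strand) was at 2.60, 3.19, 3.49 and 2.69 CPM in Pi-Fu and at 2.92, 4.401, 3.10 and 3.67 CPM in Pu-Fu. The Pu-Fu libraries numbered 1 and 4 lay inside the Pi-Fu range and those numbered 3 and 5 above it, for a log2 fold of -0.24 (SE 0.26, edgeR adjusted p = 0.84).

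The 2 subunits of the classical dimer had lower means in Pi-Fu, and the size of the differences depended on single libraries and on the model. The gene rela encodes the main activating subunit (ENSDARG00000098696, chromosome 7, 778297 to 804515, reverse strand). It was at 2.42, 3.52, 1.44 and 1.34 CPM in Pi-Fu and at 2.12, 2.64, 6.92 and 1.64 CPM in Pu-Fu. All Pu-Fu libraries but the one numbered 4 lay within the Pi-Fu range. For rela the log2 fold was -0.64 (SE 0.48, edgeR adjusted p = 0.79). It was -0.00057 without that library, -0.96 without the Pi-Fu library numbered 2 and -0.35 with haemoglobin share as a covariate. Haemoglobin genes held 0.173%, 0.171%, 0.360% and 0.155% of the counts in Pi-Fu. In Pu-Fu they held 0.090%, 0.171%, 0.101% and 0.091%. The covariate is thus partly tied to the group, and its part in the folds was not tested.

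The gene nfkb1 encodes the precursor of the DNA-binding partner of RelA (ENSDARG00000105261, chromosome 14, 49811926 to 49859823, reverse strand). It was at 1.88, 1.76, 0.607 and 0.934 CPM in Pi-Fu and at 2.19, 1.12, 3.89 and 1.01 CPM in Pu-Fu, from 8 to 54 counts a library. The Pu-Fu library numbered 4 was again the highest of the 8. For nfkb1 the log2 fold was -0.70 (SE 0.50, edgeR adjusted p = 0.77). It was -0.19 without that library, -0.95 without the Pi-Fu library numbered 1 and -0.038 with haemoglobin share as a covariate. The expected counting error alone was 25.6% of the mean in Pi-Fu and 19.0% in Pu-Fu for this gene, against observed coefficients of variation of 48.1% and 65.0%.

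Over the libraries, levels of rela and nfkb1 went together, and both ran against rel. The log2 CPM of rela and nfkb1 had a Pearson r of 0.86 over the 8 libraries (exact permutation p = 0.0075, adjusted p = 0.17 over 36 pairs of members) and a Spearman rho of 0.76 (exact permutation p = 0.037, adjusted p = 0.37). Within groups, after each group's mean was subtracted, r was 0.84, and without the 2 libraries farthest from the median of nfkb1 it was 0.59. The pair rel and rela had an r of -0.87 (exact permutation p = 0.0093, adjusted p = 0.17) and a rho of -0.71 (exact permutation p = 0.058, adjusted p = 0.37). For it r was -0.88 within groups and -0.44 without the 2 libraries farthest from the median of rel. The pair nfkb1 and rel had an r of -0.80 (exact permutation p = 0.015, adjusted p = 0.18) and a rho of -0.67 (exact permutation p = 0.083, adjusted p = 0.37), with r at -0.77 within groups and -0.64 without the 2 libraries farthest from the median of nfkb1. The pair ikbkb and myd88 had an r of -0.79 (exact permutation p = 0.022, adjusted p = 0.19) and a rho of -0.90 (exact permutation p = 0.0046, adjusted p = 0.16). For it r was -0.85 within groups and -0.91 without the 2 libraries farthest from the median of ikbkb. No pair of members passed the adjustment, and these pairs were picked for their values.

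**Figure D2:**
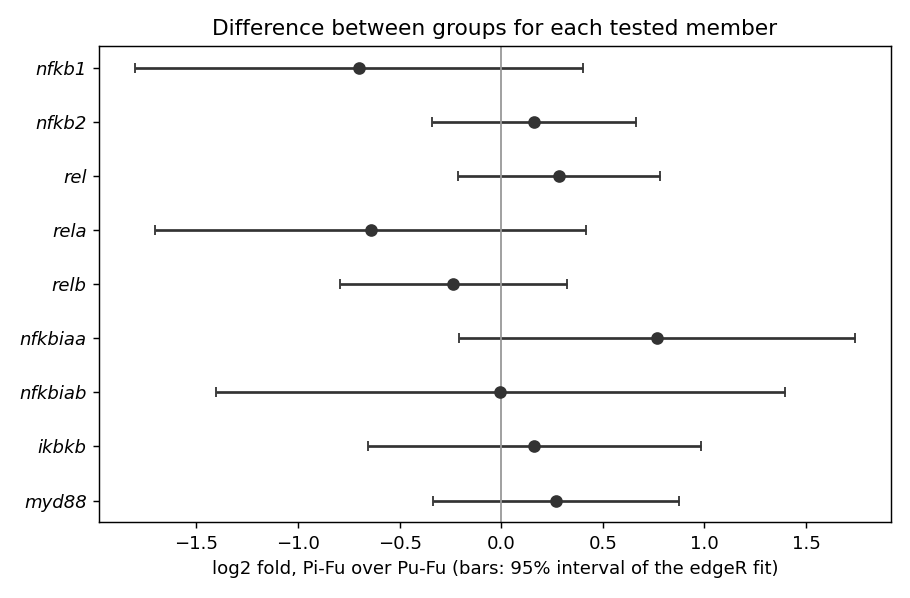
Log2 fold, Pi-Fu over Pu-Fu (x axis), of the 9 tested members (one row each), with bars for the 95% interval of the edgeR fit. Every interval spans 0, from the narrowest in rel and nfkb2 to the widest in nfkbiab, at -1.40 to 1.40.

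The IkB alpha genes were the most abundant members per length, and their values spread widely between pools of the same group. Zebrafish carries 2 copies of the gene, nfkbiaa and nfkbiab. The copy nfkbiaa (ENSDARG00000005481, chromosome 20, 16881883 to 16884737, forward strand) had the smallest p of the members. It was at 24.4, 22.4, 14.4 and 21.7 CPM in Pi-Fu and at 19.6, 5.52, 4.69 and 18.9 CPM in Pu-Fu. The Pu-Fu libraries numbered 1 and 5 lay among the Pi-Fu values, while those numbered 3 and 4 were far below all others. The means were 20.7 ± 4.37 CPM in Pi-Fu and 12.2 ± 8.19 CPM in Pu-Fu (SD, n = 4). Its log2 fold was 0.77 (SE 0.44, edgeR adjusted p = 0.74), which ranked 2032 of the 13604 genes by p. The 95% interval of the fold ran between 0.866 and 3.34.

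Leaving out the Pi-Fu library numbered 4 put the other Pi-Fu libraries all above Pu-Fu for nfkbiaa, as for 3.02% of tested genes in that direction. Its log2 fold was 0.49 without Pu-Fu library 4, 1.09 without Pu-Fu library 1, and 1.34 with haemoglobin share as a covariate. The unadjusted p was under 0.05 in the fits without the Pu-Fu library numbered 1 and with that covariate, and in limma voom, and none of these called it after adjustment. Of the 1553 exonic bases of nfkbiaa, 383 (24.7%) overlap exons of PSMA6 and si:ch73-77m20.2 on the other strand. Reads in that stretch fall on more than 1 gene and were not counted, so its level per length may be understated.

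The copy nfkbiab (ENSDARG00000007693, chromosome 17, 12942021 to 12949754, forward strand) had nearly equal means in the groups and a wide spread within each. It was at 72.0, 128, 348 and 212 CPM in Pi-Fu and at 109, 355, 240.2 and 59.0 CPM in Pu-Fu, a 6.01-fold range over the 8 libraries. High and low libraries occurred in both groups. The means were 190.1 ± 119.9 CPM in Pi-Fu and 190.7 ± 133.5 CPM in Pu-Fu (SD, n = 4), for a log2 fold of -0.0040 (SE 0.62, edgeR adjusted p = 1.00). With 756 counts or more in every library, counting error was about 2.0% of the mean, against coefficients of variation of 63.1% in Pi-Fu and 70.01% in Pu-Fu. The interval allows folds between 0.378 and 2.63, so a difference of that size in either direction was not detectable in 4 pools a group.

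Per length, which IkB alpha copy was more abundant differed between pools. In CPM nfkbiab was the higher copy in every library, at no less than 59.0 against at most 24.4 for nfkbiaa. The order per length therefore rests on the lengths counted, 5342 bases for nfkbiab and 1553 for nfkbiaa. Whether the transcripts in these hearts have those lengths was not tested. On the scale of TPM, which divides counts by gene length and scales every library to the same total, nfkbiaa made up 53.8%, 37.5%, 12.5% and 26.1% of the pair in Pi-Fu. In Pu-Fu it made up 38.3%, 5.08%, 6.29% and 52.4%. The share was above 50 percent in 1 library of each group and lowest in the Pu-Fu libraries numbered 3 and 4. With the bases that nfkbiaa shares with other genes left out of its length, the shares were 60.7%, 44.3%, 15.9% and 31.9% in Pi-Fu and 45.2%, 6.63%, 8.18% and 59.4% in Pu-Fu. The summed level of both copies was 75.5 ± 21.6 TPM in Pi-Fu and 68.2 ± 33.3 TPM in Pu-Fu (SD, n = 4). TPM carries no TMM scaling, unlike CPM, so group sums in TPM are scaled otherwise than the CPM values.

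**Figure D3:**
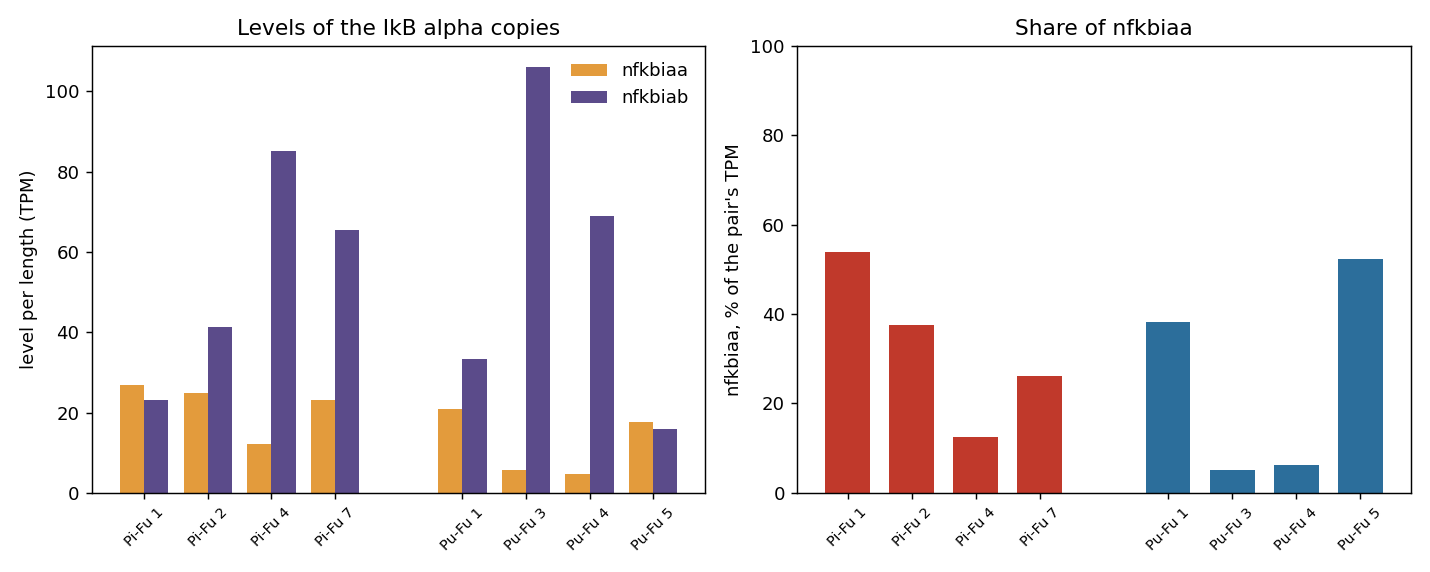
Left, level per length (TPM, y axis from 0) of nfkbiaa and nfkbiab in each library; right, nfkbiaa as a percentage of the summed TPM of both copies, with Pi-Fu libraries left of Pu-Fu libraries on each x axis. The share of nfkbiaa runs from 5.08% to 53.8%, with high and low libraries in both groups.

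The third inhibitor, nfkbiz (ENSDARG00000102097, chromosome 1, 18716 to 23389, forward strand), encodes a nuclear IkB that in mammals tunes secondary inflammatory genes. It was near the limit of detection, with 1, 0, 4 and 8 counts in Pi-Fu and 1, 1, 10 and 1 counts in Pu-Fu. A count of 0 in the Pi-Fu library numbered 2 allows up to 0.330 CPM, for counting error only. The filter on low counts left it out of the test, and no fold is given.

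The kinase gene ikbkb encodes the IKK subunit that phosphorylates IkB (ENSDARG00000079123, chromosome 8, 2319091 to 2406699, forward strand). It was at 5.92, 2.20, 1.97 and 2.80 CPM in Pi-Fu and at 3.14, 2.24, 3.82 and 2.26 CPM in Pu-Fu. The Pi-Fu library numbered 1 was the highest, and the other Pi-Fu libraries lay within or just below the Pu-Fu range. Its log2 fold was 0.16 (SE 0.38, edgeR adjusted p = 0.93), and it was -0.30 without that library.

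The gene myd88 encodes the adaptor that links most Toll-like and interleukin 1 receptors to the pathway (ENSDARG00000010169, chromosome 24, 20188914 to 20192996, reverse strand). It was at 4.93, 7.80, 11.4 and 6.77 CPM in Pi-Fu and at 4.82, 7.20, 6.13 and 7.50 CPM in Pu-Fu. All Pi-Fu libraries but those numbered 2 and 4 lay within the Pu-Fu range. For myd88 the log2 fold was 0.27 (SE 0.28, edgeR adjusted p = 0.83), and it was 0.015 without the Pi-Fu library numbered 4.

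Levels of different genes were compared per length, over the 8 libraries. The order by mean TPM was nfkbiab at 54.9 ± 31.7, nfkbiaa at 16.9 ± 8.57, myd88 at 7.37 ± 1.61 and rel at 5.33 ± 1.095 (SD, n = 8). Then came nfkb2 at 3.70 ± 0.971, rela at 2.46 ± 1.61, ikbkb at 1.70 ± 0.8289, nfkb1 at 1.36 ± 0.844, relb at 1.09 ± 0.185 and nfkbiz at 0.177 ± 0.198 TPM. Most neighbours in this order changed places in some libraries, and their differences were not tested. The higher gene of a neighbouring pair was higher in all 8 libraries for 1 pair, relb over nfkbiz, and in 4 to 7 libraries for the other pairs. For ikbkb over nfkb1 it was 5 of the 8 libraries and for nfkb1 over relb 4.

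The balance of inhibitor to subunit messenger RNA also overlapped between groups. The 5 subunits summed to 14.0 ± 3.13 TPM in Pi-Fu and 13.9 ± 2.46 TPM in Pu-Fu (SD, n = 4), without TMM scaling. The IkB alpha pair stood at 2.97, 4.11, 9.82 and 6.69 times the subunits in Pi-Fu and at 3.92, 8.05, 4.35 and 3.08 times in Pu-Fu. In every library the pair exceeded the summed subunits. The gene rel made up 43.3% ± 8.11 of the subunits in Pi-Fu and 35.7% ± 12.4 in Pu-Fu.

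Other genes of the pathway were taken from lists of receptors, adaptors, kinases, inhibitors and targets, 177 genes of the table of which 122 were tested. Over all of them edgeR called 0 after adjustment over all genes. At an unadjusted p under 0.05, 16 had a positive and 2 a negative log2 fold, where 3.67% and 3.47% of all tested genes did. Most of the 16 were target genes and not parts of the signalling chain. The lists were made with earlier results of these data known, so these counts are a description.

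**Figure D4:**
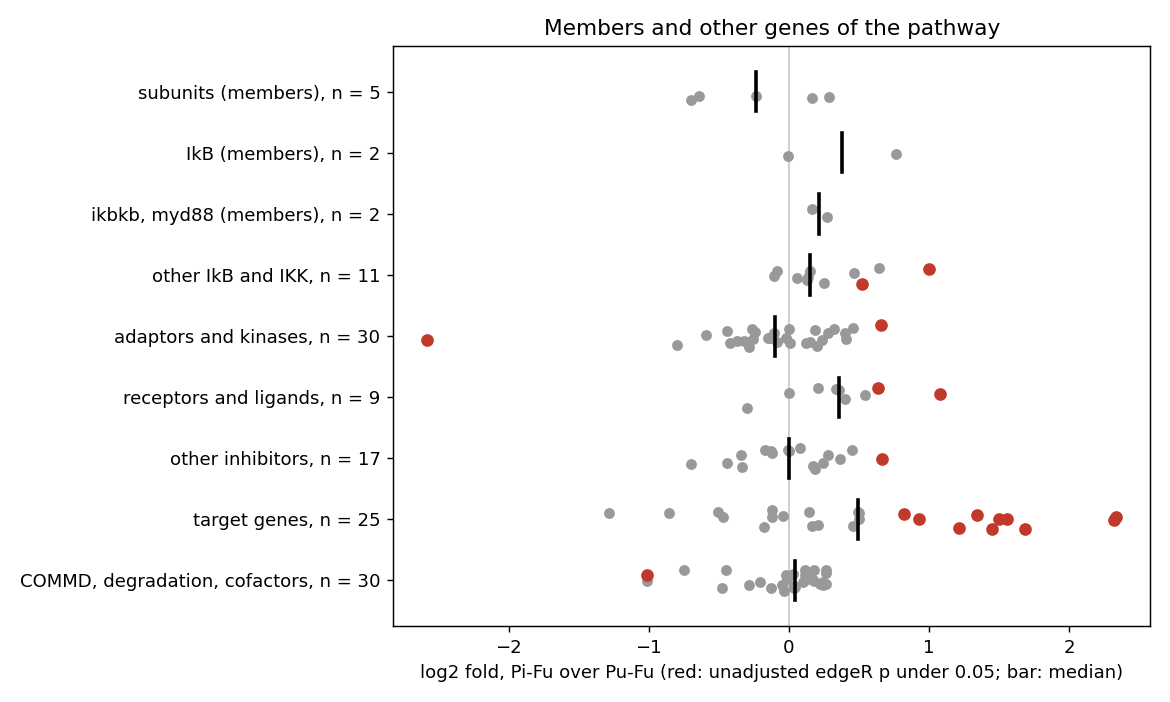
Log2 fold, Pi-Fu over Pu-Fu (x axis), of the tested members and of other pathway genes by list (rows), with red points for an unadjusted edgeR p under 0.05, grey points for the rest and black bars for list medians. No member is red, and 10 of the 25 target genes are. The lists were made with earlier results of these data known.

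Closest to the members were 11 other tested IkB and IKK genes, with a median log2 fold of 0.15 and 9 of them positive. The gene nfkbib, for IkB beta (ENSDARG00000030087, chromosome 5), was at 13.6, 13.3, 12.8 and 17.2 CPM in Pi-Fu and at 10.5, 10.2, 8.94 and 9.99 CPM in Pu-Fu. Every Pi-Fu library lay above every Pu-Fu library, as in 2.6% of tested genes. The log2 fold of nfkbib was 0.52 (SE 0.19, edgeR adjusted p = 0.60), and between 0.42 and 0.57 with each library left out in turn. The atypical nuclear IkB gene bcl3 was at 1.88 ± 0.811 CPM in Pi-Fu and 0.955 ± 0.371 CPM in Pu-Fu (SD, n = 4), a log2 fold of 1.00 (edgeR adjusted p = 0.67). The kinase complex gene CHUK was at 79.5 ± 11.3 CPM in Pi-Fu and 71.7 ± 9.65 CPM in Pu-Fu (SD, n = 4), with an edgeR adjusted p of 0.85. Its partner ikbkg was at 41.2 ± 7.69 CPM in Pi-Fu and 34.7 ± 4.89 CPM in Pu-Fu (SD, n = 4), with an edgeR adjusted p of 0.79. The adaptor tank had a log2 fold of 0.64 and azi2, a partner of TBK1, of 0.46, with unadjusted p-values over 0.05.

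Adaptors and kinases upstream of IKK showed no common direction. Of 30 tested genes 12 had a positive log2 fold, and the median was -0.10. One of the genes named PELI1, for a pellino ubiquitin ligase of Toll-like and interleukin 1 receptor signalling (ENSDARG00000091592, chromosome 1), was at 8.79, 6.48, 6.37 and 8.06 CPM in Pi-Fu. In Pu-Fu it was at 15.3, 35.13, 114.9 and 12.4 CPM. Every Pi-Fu library lay below every Pu-Fu library, as in 1.58% of tested genes. The log2 fold of PELI1 was -2.58 (SE 0.68, edgeR adjusted p = 0.51) and -1.49 without the Pu-Fu library numbered 4. DESeq2 called it, with an adjusted p of 0.0038. The gene rbck1, of the linear ubiquitin ligase complex, was at 11.3 ± 3.23 CPM in Pi-Fu and 7.21 ± 1.88 CPM in Pu-Fu (SD, n = 4), a log2 fold of 0.65 (edgeR adjusted p = 0.64). The kinase gene ripk1l had a log2 fold of -0.80 and the adaptor traf2b of -0.42, with adjusted p-values of 0.70 and 0.73.

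Receptors and ligands of the pathway were mostly too low to test, with 9 of 28 genes tested and a median log2 fold of 0.35. The TNF receptor gene tnfrsf1b was at 9.51, 9.89, 10.01 and 7.94 CPM in Pi-Fu and at 6.13, 7.60, 5.19 and 5.08 CPM in Pu-Fu. Its groups did not overlap, with a log2 fold of 0.64 (SE 0.22, edgeR adjusted p = 0.58). The TNF gene tnfb was at 1.70, 0.879, 1.44 and 0.992 CPM in Pi-Fu and at 0.365, 0.720, 0.433 and 0.859 CPM in Pu-Fu, a log2 fold of 1.07 (edgeR adjusted p = 0.63). The co-stimulatory receptor gene cd40 had a log2 fold of 0.35 and the flagellin receptor gene tlr5b of 0.40, with unadjusted p-values over 0.05.

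Genes listed as targets of NF-kB had the highest median of the pathway lists, at a log2 fold of 0.49 over 25 tested genes. Of these 10 had an unadjusted p under 0.05 with a positive log2 fold and 0 with a negative one, against 3.67% and 3.47% of all tested genes. The list was made with earlier results of these data known, so this count is a description and no test of the targets. Inducible feedback inhibitors and the members stand in other lists. The chemokine gene cxcl18b was at 24.6, 25.6, 40.6 and 29.8 CPM in Pi-Fu and at 12.9, 8.72, 6.99 and 12.5 CPM in Pu-Fu (edgeR adjusted p = 0.31). The E-selectin gene sele, for an endothelial adhesion molecule that catches leukocytes (ENSDARG00000009123, chromosome 20), was at 105.8, 26.7, 84.8 and 31.5 CPM in Pi-Fu and at 19.4, 23.8, 14.3 and 19.8 CPM in Pu-Fu. Its log2 fold was 1.69 (SE 0.42, edgeR adjusted p = 0.43). Pi-Fu values were above all Pu-Fu values in both genes, narrowly so for sele in the libraries numbered 2 and 7.

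The transcription factor gene JUNB on chromosome 1 (ENSDARG00000074378) was at 4.67, 3.63, 14.3 and 6.42 CPM in Pi-Fu and at 2.92, 2.56, 3.24 and 1.56 CPM in Pu-Fu, a log2 fold of 1.497 (SE 0.42, edgeR adjusted p = 0.51). The interferon regulatory factor gene irf1b was at 31.2 ± 7.54 CPM in Pi-Fu and 16.4 ± 6.74 CPM in Pu-Fu (SD, n = 4), a log2 fold of 0.93. The other 6 of the 10 were PTGS2 and GADD45B on chromosome 2, MMP9, tnfaip2b, ccl34a.4 and CEBPB, with log2 folds between 0.82 and 2.33. Without the Pi-Fu library numbered 4 the count was 6, with log2 folds of 1.25 for PTGS2 and 0.97 for GADD45B. With haemoglobin share as a covariate it was 3. Red blood cell markers, 7 genes of the table, summed to between 577 and 1845 CPM in Pi-Fu, highest in the library numbered 4, and to between 407 and 728 CPM in Pu-Fu. MMP9 also stands in the neutrophil list. The second copies named JUNB (chromosome 3), GADD45B (chromosome 11) and PELI1 (chromosome 17) had log2 folds of 0.49, 0.20 and -0.59, with unadjusted p-values over 0.05. The other gene named SELE (ENSDARG00000042138, also on chromosome 20) had a log2 fold of 0.50 (edgeR adjusted p = 0.85), and its groups overlapped. DESeq2 called cxcl18b, sele and PTGS2 of the targets.

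**Figure D5:**
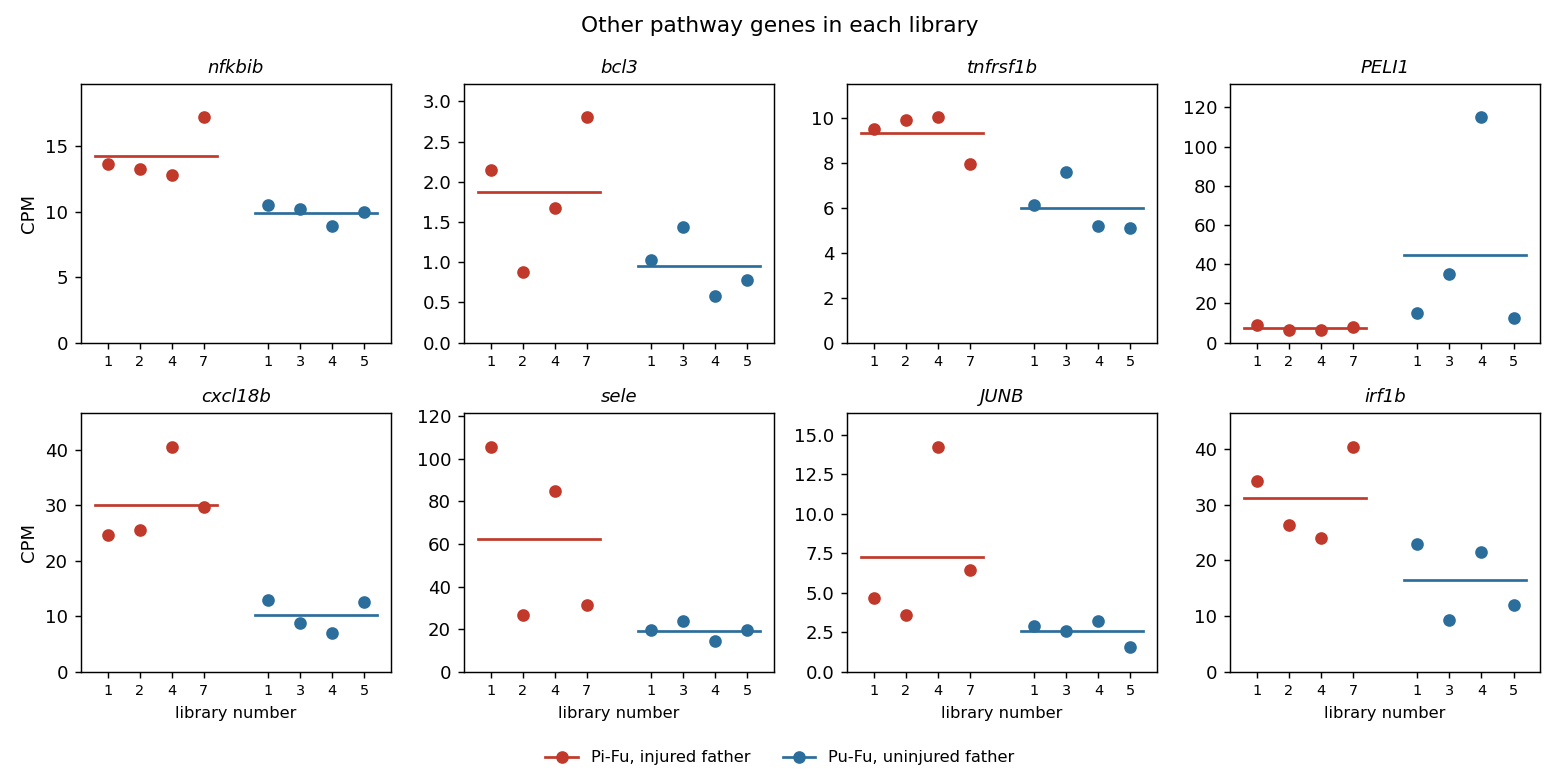
CPM (y axis, linear from 0) of 8 pathway genes that are not members in each Pi-Fu library (left in each panel) and Pu-Fu library (right), with the library number on the x axis and lines for group means. The groups do not overlap in nfkbib, tnfrsf1b, PELI1, cxcl18b, sele, JUNB and irf1b, and they overlap in bcl3.

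Several standard NF-kB readouts were not higher or were hardly measured. The genes SOD2, vcam1b, icam3 and csf3a had log2 folds of -0.05, -0.47, -0.12 and -0.12, with unadjusted p-values over 0.05. The complement gene c3a.1 had a log2 fold of -1.29 (edgeR adjusted p = 0.72). Of the 48 listed targets 23 were left out by the filter on low counts, among them cxcl8a, il6 and IL10. In the left-out targets mmp13a, plaua and cd83 every Pi-Fu library lay above every Pu-Fu library, and in none did the reverse hold. Their mean CPM was 0.326, 0.956 and 0.170 in Pi-Fu and 0.0180, 0.286 and 0.0576 in Pu-Fu. These levels are low, and no fold is given. For cd83 the order rests on library size. A count of 1 gave 0.0897 CPM in the Pi-Fu library numbered 1 and 0.0800 CPM in the Pu-Fu library numbered 3. The share without overlap among all left-out genes was not worked out, so the common direction is a description only. Mean levels in CPM were 0.250 in Pi-Fu and 0.0195 in Pu-Fu for cxcl8a, and il6 and IL10 were listed at 0 in all Pu-Fu libraries and in 2 and 3 of the 4 Pi-Fu libraries. The macrophage and neutrophil marker sums given above overlapped between groups. All 4 tested neutrophil markers had positive log2 folds, with a median of 0.67 and 2 at an unadjusted edgeR p under 0.05 (MMP9 and il6r). MMP9 is also a listed target, and whether il6r marks neutrophils in these hearts was not tested. The log2 fold of npsn was 0.53, and -0.88 without the Pi-Fu library numbered 4. That of MMP9 was 1.45, and 0.83 without the Pi-Fu library numbered 1. With each library left out in turn, that of il6r ran between 0.67 and 0.88. The gene il6r was at 4.13, 2.97, 4.55 and 3.74 CPM in Pi-Fu and at 2.77, 1.92, 2.02 and 2.34 CPM in Pu-Fu, without overlap, while npsn, which carried most of the sum's range, was between 1.23 and 28.0 CPM in Pi-Fu and between 2.50 and 16.3 CPM in Pu-Fu. Of 14 tested macrophage markers 11 had positive log2 folds, with a median of 0.33. Within that list marco, a scavenger receptor gene of macrophages, was at 12.2 ± 3.35 CPM in Pi-Fu and 7.03 ± 0.466 CPM in Pu-Fu (SD, n = 4), without overlap. All 6 tested red blood cell markers had positive log2 folds, with a median of 0.86, above that of the targets, and 3 at an unadjusted p under 0.05. Of these cahz was at 108.3 ± 37.0 CPM in Pi-Fu and 59.2 ± 13.3 CPM in Pu-Fu, and blvrb at 21.4 ± 7.62 CPM in Pi-Fu and 11.5 ± 2.57 CPM in Pu-Fu (SD, n = 4), both without overlap. The part of neutrophil and macrophage markers in the targets' values was not tested.

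Inducible feedback inhibitors outside the IkB family were centred on 0, with a median log2 fold of 0.0012 over 17 tested genes, 9 positive and 8 negative. Among them TNFAIP3 had a log2 fold of -0.33 and TNIP1 of -0.0040, with unadjusted edgeR p-values over 0.05. The gene cyldl, like the deubiquitinase CYLD, had a log2 fold of 0.66 (edgeR adjusted p = 0.66). The ubiquitin ligase gene itcha was at 10.5, 11.2, 6.14 and 9.98 CPM in Pi-Fu and at 12.5, 12.8, 14.6 and 11.3 CPM in Pu-Fu, all Pi-Fu libraries lying below (log2 fold -0.44, edgeR adjusted p = 0.71). The adaptor gene tnip2 had a log2 fold of 0.45 and tnfaip8l2a of 0.36, with unadjusted p-values over 0.05. The 30 tested genes for COMMD proteins, IkB degradation and nuclear cofactors had a median of 0.04. The acetyltransferase genes EP300 on chromosome 12 and CREBBP on chromosome 3 had log2 folds of -1.02 and -0.75, and FBXW11 of the IkB ubiquitin ligase -0.48. Their unadjusted edgeR p-values were over 0.05. Without the Pu-Fu library numbered 4 these folds were -0.24, -0.58 and -0.27. The other copies had log2 folds of -0.29 for EP300 on chromosome 3, -0.45 for CREBBP on chromosome 22 and 0.18 for fbxw11a.

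Genes whose log2 CPM closely resembled 4 of the members over the 8 libraries were found by Pearson r among 11132 other genes. For nfkbiaa they were SOX4 (r = 0.96), ripply1 (0.95) and MED19 (0.95). For nfkb2 they were gabrr3a (0.99), MEPCE (0.98) and PLPP7 (0.97). For rela they were CEP85L (0.99) and DAAM2 (0.97), and for rel they were ttf1.1 (0.98), arhgap4a (0.97) and hpdl (0.97). With 8 libraries and this many genes the values describe likeness in these libraries and carry no test.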

How the data were processed

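RNA of 8 libraries, 4 per group, was analysed. The authors deposited raw counts of reads per gene, which they did not normalise. Per the file headers, counting used featureCounts 2.0.3, Ensembl release 111 of GRCz11 and strand option 0. That command sets no option to count multi-mapping reads or reads on more than 1 gene, which the program leaves out by default. STAR 2.7.10a is among the tools in the submitters' processing notes. Per the labels' protocols, libraries were amplified, and no molecular identifiers are mentioned, so intervals and floors cover counting error only.

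Symbols came from a table of gene names, which named 29201 of the 32520 genes. Where that table has a human-style name for several copies, the chromosome is given. Groups were compared in edgeR 4.0.16 under R 4.3.3 by its quasi-likelihood test, after TMM scaling and filterByExpr (minimum count 10). Dispersions were estimated robustly, and p-values were adjusted by Benjamini-Hochberg over the 13604 tested genes, with a threshold of 0.05. Each SE is the size of the log2 fold divided by root F, and intervals use the fit's degrees of freedom. The code was tested on simulated data. Alternatives were other scalings, filters, DESeq2 1.42.0, limma 3.58.1 voom, the haemoglobin share (16 genes) as a covariate, the replicate number as a block and each library left out. The members and lists were chosen with earlier results of these data known. Named genes are the members, up to 4 genes with the smallest p per list, clone names skipped, and the 3 most similar genes for nfkbiaa, nfkb2, rela and rel. Some genes that this rule names are not reported here. Other genes named by value were chosen after their values were seen. Markers of lymphocytes, thrombocytes, endothelium, epicardium, red blood cells and atrium were also summed.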

Additional observations from a re-analysis of the deposited data

Results flagged for a closer look

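The Pu-Fu library numbered 4 stood apart from its group for nfkbiz, at 0.721 CPM (10 counts), where the other Pu-Fu libraries had 1 count each. The Pi-Fu libraries had 1, 0, 4 and 8 counts. Its gap to the next library was 0.989 of the group's range, above Dixon's critical value for 4 samples at the 95% level. Of 20 groups checked (10 members in 2 groups) 1 was set apart in this way, and chance does so for about 1 in 20.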

How the results depend on the processing

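The count of 0 members called held under every alternative run: RLE and upper-quartile factors, library sizes alone, no or a stricter filter on low counts, DESeq2, limma voom, the haemoglobin share, the replicate block and each library left out. The members' median log2 fold of 0.16 was -0.038 once haemoglobin share was a covariate and between 0.015 and 0.22 with a library left out. For nfkbiaa the unadjusted p was under 0.05 in 3 alternatives, with unadjusted p-values of 0.033 (edgeR with the haemoglobin share, log2 fold 1.34), 0.036 (edgeR without the Pu-Fu library numbered 1) and 0.041 (limma voom, 1.03). Its adjusted p over the alternatives ran between 0.54 and 1.00. Members without overlap numbered between 0 and 1 with a library left out. The sign of nfkbiab was positive with upper-quartile factors (0.051), library sizes alone (0.016) and limma voom (0.093), and its log2 fold ran between -0.47 and 0.49 with a library left out. That of ikbkb ran between -0.30 and 0.34. The log2 fold of myd88 was -0.17 with the haemoglobin share. Of the pathway genes that are not members, DESeq2 called 4 and the replicate block 3, against 0 in edgeR without a block. Over all genes DESeq2 called 63 and the replicate block 20. An unadjusted p under 0.05 was reached by 971 genes, by 441 with the haemoglobin share and by 637 without the Pi-Fu library numbered 4. In CPM in place of TPM, 3 neighbouring pairs of members kept their order in all 8 libraries, against 1. The cause was not tested in these cases.

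The groups share the replicate numbers 1 and 4. The deviations of the same-numbered libraries had correlations of 0.15 and -0.31, and no source says that a number marks a shared origin, so they were not treated as pairs. With the replicate block, which leaves 1 residual degree of freedom, the log2 fold of relb was 0.0058, that of nfkb1 -1.37 and that of rela -1.05, and 0 members were called. Among tested members, expected counting error was below the observed coefficient of variation in both groups, except for relb in Pi-Fu (16.3% against 14.1%). It came close to it for rel in Pi-Fu (9.89% against 10.9%).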

Other observations

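Genes that resembled the variable IkB alpha copy nfkbiab over the 8 libraries were looked up after its values were seen. Among 11132 other genes the 3 with the highest Pearson r were CEBPD (r = 0.98), a transcription factor gene of the acute phase response, PIM1 on chromosome 8 (0.98), a kinase gene induced by cytokines, and arl5c (0.97). Between the fathers' groups they had log2 folds of -0.20, -0.04 and -0.19 and unadjusted edgeR p-values of 0.77, 0.94 and 0.81. The other copy, nfkbiaa, ran against nfkbiab, with an r of -0.64 over the 8 libraries (exact permutation p = 0.092, adjusted p = 0.38 over 36 pairs) and a rho of -0.62 (exact permutation p = 0.11, adjusted p = 0.38). Within groups r was -0.83, and without the 2 libraries farthest from the median of nfkbiaa it was -0.58.

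Markers of other cells, summed in CPM, overlapped between groups. Lymphocyte markers lay between 3.49 and 6.70 in Pi-Fu and between 3.03 and 9.76 in Pu-Fu. Thrombocyte markers lay between 118 and 185 in Pi-Fu and between 115 and 142 in Pu-Fu. Most of that sum came from FLI1, between 87.8 and 152 CPM over the 8 libraries, which also stands in the endothelial list. Endothelial markers lay between 747 and 879 in Pi-Fu and between 826 and 918 in Pu-Fu, and epicardial and fibroblast markers between 182 and 292 in Pi-Fu and between 216 and 290 in Pu-Fu. Genes matched to the atrium and outflow list lay between 754 and 1240 in Pi-Fu and between 662 and 1200 in Pu-Fu. Most of that sum came from the gene with the human-style name MYH6 on chromosome 2, between 425 and 1051 CPM. The gene with the zebrafish symbol myh6, on chromosome 20, was between 48.3 and 270 CPM. The symbol vmhc, fixed for the cardiomyocyte list, matched no gene name. Whether the chromosome 2 gene marks atrium in these hearts was not tested, so the sum is not a measure of atrial tissue.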
